A study of Mus musculus with 13 samples.

Results

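Chromosome 7 of the mouse carried the least 5-hydroxymethylcytosine (5hmC) of the 19 autosomes in 13 breast tumours, and its 5hmC is described here stretch by stretch. Its members are the 475 bins of 300 kb on chromosome 7 that were above 0 in at least 1 of the 13 tumours, out of 8576 such bins on the autosomes and X. The chromosome was selected on its measured level, so its low rank is a description and was not tested. Chromosome 7 has 485 bins in the table, and the 10 left out, chr7:1-3000000 in GRCm38 coordinates, were 0 in every tumour. Just inside that limit were 2 bins above 0 in a single tumour and 5 bins above 0 in 2 tumours, and 375 bins were above 0 in all 13.

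The tumours were PyMT-induced breast tumours (driven by the polyoma middle T oncogene) of FVB mice, 1 tumour per mouse as the labels describe them, and 5hmC was measured by shallow tet-assisted bisulfite sequencing (TAB-seq). All groups share the FVB strain and the PyMT oncogene. In one model, mice aged 16 weeks were PHD2+/+ (called wild type below, n = 3) or PHD2+/- (heterozygous, n = 4). Phd2 is a prolyl hydroxylase that senses oxygen, and the labels say that vessels and oxygen are restored in the heterozygous tumours. In the other model, mice aged 12 weeks had been injected hydrodynamically with an empty PRRL2 plasmid (n = 3) or with PRRL2-sFlk1 (n = 3), which makes a soluble VEGF receptor, and the labels say that sFlk1 tumours are more hypoxic. The models differ in age and in manipulation, so they were compared only within themselves.

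5hmC is made from 5-methylcytosine by TET enzymes, which need oxygen and iron. In mammalian tissue it lies mostly in CG dinucleotides and is known to be richest in the bodies and enhancers of active genes. Mouse chromosome 7 is known for its clusters of vomeronasal, olfactory and zinc finger genes and for imprinted domains, where 1 parental copy is silent. Vomeronasal and olfactory receptors detect pheromones and odours in sensory neurons, and zinc finger genes of the clustered kind encode DNA-binding repressors.

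To show how unequal the sequence at gene starts is along this chromosome, 6 promoters are printed from RefSeq (GRCm38.p6), each from 250 bases before to 50 bases after the start of the gene, 5′ to 3′ on the gene's strand, with every CG in capitals. Blm, a DNA helicase, lies at chr7:80534949-80535248 (minus strand) in a bin with a mean 5hmC of 6.06%. Rps3, a ribosomal protein gene, lies at chr7:99483660-99483959 (minus strand) in a bin at 5.53%. Zfp619, a zinc finger gene, lies at chr7:39517516-39517815 (plus strand) in a bin at 2.24%. The receptor genes Vmn1r138 at chr7:22028848-22029147, Vmn2r58 at chr7:41872621-41872920 and Olfr478 at chr7:108033918-108034217 (all minus strand) lie in bins at 0.315%, 0.263% and 1.14%.
Blm: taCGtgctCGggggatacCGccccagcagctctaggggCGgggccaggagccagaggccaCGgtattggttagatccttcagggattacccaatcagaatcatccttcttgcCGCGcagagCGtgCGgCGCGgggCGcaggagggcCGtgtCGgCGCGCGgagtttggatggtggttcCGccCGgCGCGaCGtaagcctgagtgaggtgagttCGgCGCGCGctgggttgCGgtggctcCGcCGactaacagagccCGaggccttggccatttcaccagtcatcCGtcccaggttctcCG
Rps3: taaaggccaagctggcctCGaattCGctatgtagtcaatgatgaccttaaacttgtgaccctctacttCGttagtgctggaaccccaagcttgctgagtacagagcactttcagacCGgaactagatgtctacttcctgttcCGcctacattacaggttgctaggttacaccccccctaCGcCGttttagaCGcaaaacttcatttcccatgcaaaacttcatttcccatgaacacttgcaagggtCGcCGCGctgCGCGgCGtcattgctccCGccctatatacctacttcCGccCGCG
Zfp619: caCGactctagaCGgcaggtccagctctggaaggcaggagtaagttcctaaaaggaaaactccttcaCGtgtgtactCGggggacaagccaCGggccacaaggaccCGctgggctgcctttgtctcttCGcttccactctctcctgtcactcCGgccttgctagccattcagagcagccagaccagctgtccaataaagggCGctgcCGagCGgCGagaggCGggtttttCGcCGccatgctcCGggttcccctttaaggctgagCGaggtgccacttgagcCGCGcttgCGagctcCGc
Vmn1r138: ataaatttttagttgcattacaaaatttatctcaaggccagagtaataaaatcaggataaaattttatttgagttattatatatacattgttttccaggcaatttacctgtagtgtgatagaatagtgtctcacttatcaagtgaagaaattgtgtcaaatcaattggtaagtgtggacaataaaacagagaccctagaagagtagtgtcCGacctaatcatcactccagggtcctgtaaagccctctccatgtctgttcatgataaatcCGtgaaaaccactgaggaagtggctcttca
Vmn2r58: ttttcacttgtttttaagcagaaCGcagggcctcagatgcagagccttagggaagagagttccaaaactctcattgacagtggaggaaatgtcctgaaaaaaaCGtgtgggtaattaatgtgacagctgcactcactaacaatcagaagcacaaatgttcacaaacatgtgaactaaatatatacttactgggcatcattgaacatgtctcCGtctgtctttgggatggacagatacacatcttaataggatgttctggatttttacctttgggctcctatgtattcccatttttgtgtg
Olfr478: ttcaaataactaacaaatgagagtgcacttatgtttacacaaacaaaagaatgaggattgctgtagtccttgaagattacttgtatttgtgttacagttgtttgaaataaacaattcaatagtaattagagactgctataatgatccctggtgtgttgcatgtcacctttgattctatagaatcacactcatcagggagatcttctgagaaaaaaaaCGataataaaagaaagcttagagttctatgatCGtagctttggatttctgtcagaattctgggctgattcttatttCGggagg

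The Blm promoter holds 32 CG, Rps3 18 and Zfp619 21, while Vmn1r138 holds 2 and Vmn2r58 and Olfr478 hold 3 each. These 6 are picked examples, and others go against their pattern. The promoter of Stard10, not printed, holds only 4 CG and lies in a bin at 7.13%. Counting the letters CG, which read the same on both strands, in all RefSeq promoters of this length, 94.2% of 27025 held at least 1, with a median of 7. On chromosome 7 the median was 1 for 163 vomeronasal receptors, 1 for 209 olfactory receptors, 0 for 29 secretoglobins, 14 for 95 zinc finger genes and 15 for 1130 protein-coding genes outside these families. When the bins were put into 5 equal classes by their mean 5hmC, the median promoter held 1, 1, 8, 14 and 18 CG from the lowest to the highest class. Outside the families the medians were 1, 4, 14, 14 and 19. A bin is far longer than such a window, so its value says nothing of the promoter itself.

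Mean 5hmC on chromosome 7 was 2.29% ± 0.252 (SD, n = 13), against 2.72% ± 0.286 over the bins of the other autosomes. The wild-type tumours stood at 2.17%, 1.97% and 2.06% and the heterozygous tumours at 2.60%, 2.84%, 2.40% and 2.26%. The sFlk1 tumours stood at 2.12%, 2.13% and 2.22% and the empty-vector tumours at 2.60%, 2.20% and 2.15%. Chromosome 7 was the lowest autosome in each of the 13 tumours. The ratio to the other autosomes ran from 0.799 to 0.872, with a mean of 0.839. Chromosome 1 came next at 2.42% and chromosome 14 at 2.44%, chromosome 19 was highest at 3.16%, and X was lower than all autosomes at 1.31%.

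**Figure D1:**
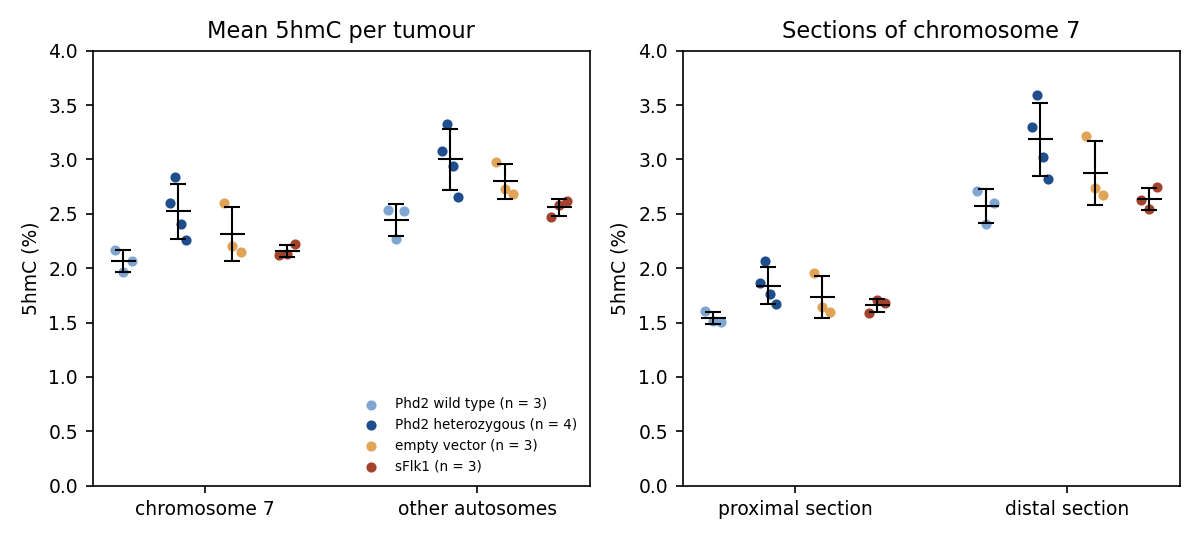
Mean 5hmC (%) per tumour on chromosome 7 and on the other autosomes (left) and in its proximal and distal sections (right). Points are tumours, and bars are the group mean and SD. Chromosome 7 lies below the other autosomes in each group, and the distal section (2.85%) lies above the proximal section (1.70%).

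The low level went with a gene-rich chromosome. Chromosome 7 had 4.26 protein-coding genes per bin, the most of the 19 autosomes, and 20.6% of its bins held none, the smallest share. Of its protein-coding genes, 33.8% belonged to 13 clustered families, counted by symbol: vomeronasal, olfactory and Mas-related receptors, zinc finger genes, kallikreins, CEA genes, Cyp2 cytochromes, Siglecs, tripartite motif genes, beta globins, Nlrp genes, secretoglobins and Obox genes. Leaving these out, it had 2.83 genes per bin, which ranked 4th from the top.

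Bins with a family gene, 149 of the 475 or 31.4%, averaged 1.60% ± 0.179 (SD, n = 13), and the other 326 bins averaged 2.60% ± 0.291. On the other autosomes 5.57% of bins held a gene of these families, and they averaged 2.43% against 2.74% for the rest. Without family bins chromosome 7 ranked 6th from the bottom of the 19 autosomes, and between 4th and 7th in single tumours. Even so, gene-free bins of chromosome 7 were at 1.30% (96 bins) against 1.68% on the other autosomes, and bins with 1 to 2 genes at 2.77% against 3.03%. Bins with 3 to 5 genes were at 3.51% against 3.64%, and those with 6 or more at 3.50% against 3.61%. Among the 375 bins above 0 in all tumours chromosome 7 was still the lowest autosome, at 2.75% against 2.85% for chromosome 1.

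**Figure D2:**
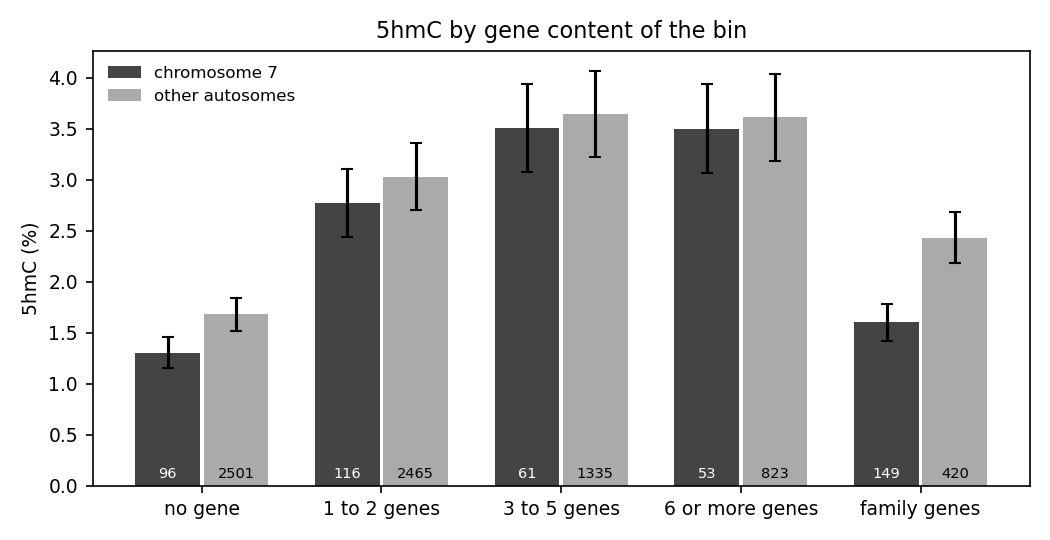
Mean 5hmC (%) by the number of protein-coding genes in a bin without family genes, and in bins with family genes, on chromosome 7 (dark) and the other autosomes (light). Bars are means over 13 tumours, error bars the SD over tumours, and the numbers in the bars count bins. The widest gap is in family bins, 1.60% against 2.43%.

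A value of 0 was more frequent on chromosome 7, at 5.54% of bins in a tumour on average against 1.91% on the other autosomes. Of the 100 bins with a 0 in at least 1 tumour, 52 held a family gene, and of the 17 bins above 0 in 1 to 6 tumours, 13 did. Some of the receptor genes in such clusters are close copies of each other. How reads that fit several copies were treated is not given in the sources used here, a 0 may mean that 5hmC was absent or that nothing was read, and the part of either in the low level was not tested.

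Along the chromosome 5hmC was high and low in the same places in all tumours. Over 475 bins, the profiles of 2 tumours correlated with a Pearson r of 0.737 to 0.896 (median 0.835, 78 pairs), and over 48 windows of 3 Mb with an r of 0.900 to 0.986 (median 0.959). These are correlations along 1 chromosome, where the points share gene content and base composition. Pairs within a group had a median r over bins of 0.840 and pairs from different groups 0.835.

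The section nearer the centromere, chr7:3000001-72900000, averaged 1.70% ± 0.168 (SD, n = 13), and the distal section, chr7:72900001-145441459, averaged 2.85% ± 0.340. The ratio of distal to proximal was between 1.49 and 1.77 in the 13 tumours. Family genes lay in 105 of 233 proximal bins and in 44 of 242 distal bins, so the sections differed in makeup as well as in level, although they held 4.57 and 3.97 protein-coding genes per bin.

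**Figure D3:**
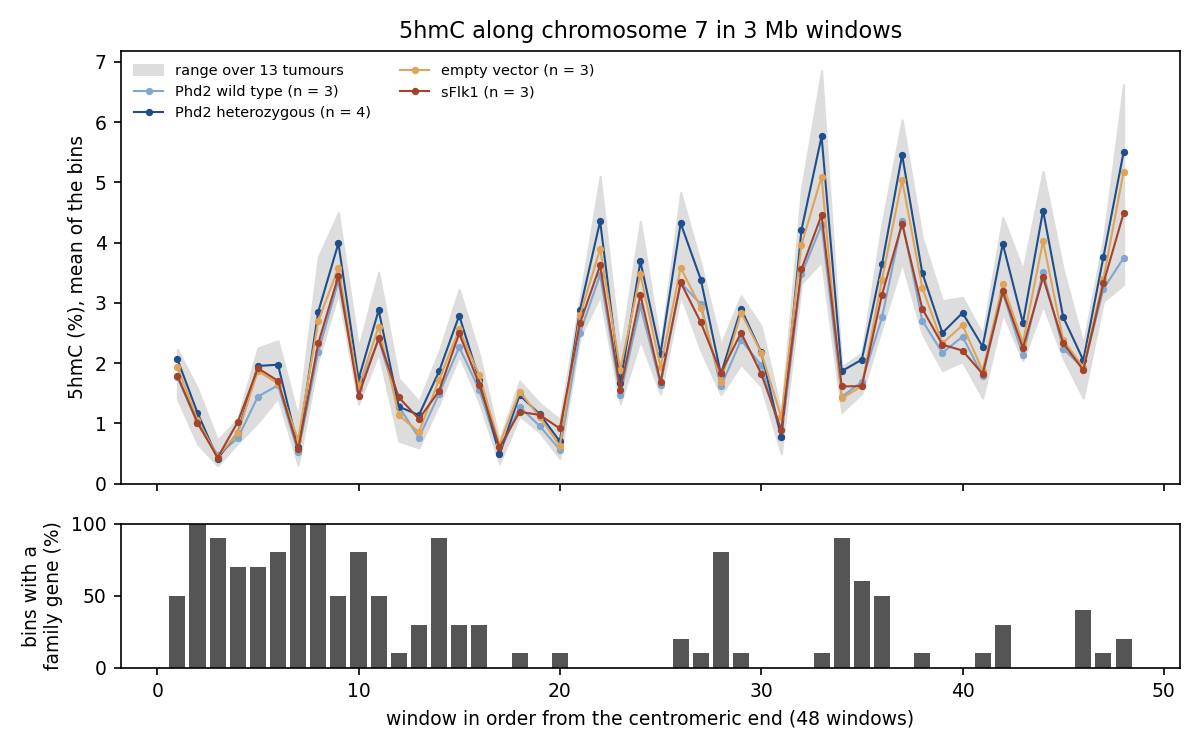
5hmC (%) in the 48 windows of 3 Mb along chromosome 7, in order from the centromeric end. Lines are group means, the grey band is the range over 13 tumours, and the lower panel gives the percentage of bins with a family gene. The 4 lines follow each other, and the 3 highest windows, near 5%, all lie in the distal section.

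The steepest step between neighbouring windows was a drop from 4.97% in chr7:99000001-102000000 to 1.61% in chr7:102000001-105000000, where the largest olfactory receptor cluster begins. That drop was between 2.31 and 4.92 percentage points in the 13 tumours. The steepest climb, from 0.878% to 3.83%, was into chr7:96000001-99000000, which holds Gab2 and Pak1, a docking protein and a kinase of growth signalling. Both steps, and the next 4 in size, had the same sign in all 13 tumours.

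The highest window, chr7:99000001-102000000, holds 53 protein-coding genes, among them Uvrag, Rps3, Arrb1, Ucp2 and Numa1. It stood at 4.52%, 3.69% and 4.68% in wild-type, 5.87%, 6.86%, 5.17% and 5.16% in heterozygous, 4.09%, 4.69% and 4.60% in sFlk1 and 5.56%, 4.69% and 5.03% in empty-vector tumours. Each heterozygous value exceeded each wild-type value, and heterozygous tumour 2 was the highest of the 13.

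The second, chr7:111000001-114000000, averaged 4.85% and holds the translation factor Eif4g2, the transcription factor Tead1 and the clock gene Arntl. The third, at the chromosome's end (chr7:144000001-145441459, 5 bins), averaged 4.79% and holds the cortactin gene Cttn, the growth factors Fgf3, Fgf4 and Fgf15 and the cyclin gene Ccnd1. The fourth, chr7:132000001-135000000, averaged 3.93% with the transcriptional corepressor Ctbp2, and the fifth, chr7:66000001-69000000, averaged 3.88% with the transcription factor Mef2a and the growth factor receptor Igf1r. None of these 5 windows had a 0 in any bin of any tumour.

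Among single bins the highest was chr7:132900001-133200000 with Ctbp2 and the deubiquitinase gene Zranb1, at 7.48% ± 1.78 (SD, n = 13). It stood at 5.99%, 5.44% and 6.70% in wild-type, 8.61%, 10.1%, 8.32% and 8.06% in heterozygous, 5.76%, 5.33% and 8.70% in sFlk1 and 8.63%, 10.2% and 5.46% in empty-vector tumours. Again the heterozygous values all exceeded the wild-type values, and the sFlk1 and empty-vector tumours overlapped.

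The bin chr7:101100001-101400000 with Fchsd2, Atg16l2, Stard10 and Arap1 followed at 7.13% ± 1.89. Those with Cemip and Abhd17c (chr7:84000001-84300000) and with Lhpp and Fam53b (chr7:132600001-132900000) stood at 6.43% and 6.26%. The remaining 6 of the 10 highest bins lay between 6.06% and 6.23% and held Plekha7, Rps13 and Pik3c2a, Anpep and Zfp710, Fam174b, Parva and Tead1, Snrpa1 and Chsy1, and Akap13 and Klhl25. Of the 10, 9 were in the distal section, the exception being the bin with Chsy1 at chr7:66000001-66300000, and 1 held a family gene, Zfp710.

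The lowest window, chr7:9000001-12000000, averaged 0.443% and holds 28 protein-coding genes, 27 of them in the families, mainly Vmn1r and Vmn2r receptors and Zscan4 genes. In it 35.4% of values were 0. The window chr7:21000001-24000000, all vomeronasal bins, averaged 0.608% with 38.5% of values at 0, and chr7:12000001-15000000 averaged 0.863%.

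The other 2 of the 5 lowest windows held no receptor cluster. Chr7:51000001-54000000 averaged 0.557% with 6 genes, among them Ano5, the glutamate transporter Slc17a6, Fancf and Gas2, and no bin with a family gene. It stood at 0.469%, 0.645% and 0.416% in wild-type, 0.499%, 0.334%, 0.649% and 0.474% in heterozygous, 0.613%, 0.471% and 0.723% in sFlk1 and 0.718%, 0.708% and 0.522% in empty-vector tumours, so all groups overlapped. Chr7:60000001-63000000, with the imprinted genes Snrpn, Ndn, Magel2, Mkrn3 and Peg12, averaged 0.703%. In these windows 7.69% and 3.85% of values were 0.

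The 10 lowest bins averaged 0.13% to 0.315%. Of these, 6 held Vmn1r or Vmn2r genes (among them Vmn2r46 and Vmn2r47, Vmn2r40, Vmn2r58, Vmn1r73 to Vmn1r76 and Vmn1r138), 2 held secretoglobins (Scgb2b15, Scgb2b10), 1 held only predicted genes and 1, chr7:59400001-59700000, none. The lowest, chr7:9600001-9900000, was 0 in 12 tumours and 1.69% in heterozygous tumour 2.

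Vomeronasal receptors filled 56 bins with a mean of 0.844% ± 0.083 (SD, n = 13), and 54 of these bins lay below the chromosome's mean. The tumours ranged from 0.680% to 1.02%, and the wild-type tumours (0.826%, 0.817% and 0.680%) overlapped the heterozygous tumours (0.795%, 1.02%, 0.827% and 0.905%). Of all values in these bins 21.8% were 0. The longest run, chr7:20100001-24300000, has 14 bins and 99 genes and pseudogenes from Vmn1r91 to Vmn1r183 and averaged 0.654%. On other autosomes 87 bins with vomeronasal genes averaged 1.53%.

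Olfactory receptors filled 27 bins with a mean of 1.48% ± 0.171, of which 22 lay below the chromosome's mean and 1.99% of values were 0. The longest run, chr7:102300001-105600000, has 11 bins and 158 genes and pseudogenes from Olfr543 to Olfr692 and averaged 1.43%. The wild-type tumours stood at 1.32%, 1.26% and 1.35% and the heterozygous tumours at 1.68%, 1.80%, 1.62% and 1.59%, with no overlap. Elsewhere on the autosomes 144 olfactory bins averaged 1.80%.

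Zinc finger genes lay in 46 bins with a mean of 2.46% ± 0.322, above the chromosome's own mean. Counted by symbol, they include lone genes outside clusters of their kind, such as Zfp710 in a bin at 6.18% and Zfp419 in 1 at 0.363%. The median bin was at 2.18%, 24 of the 46 bins lay below the chromosome's mean, and single bins ranged from 0.353% to 6.18%. The level differed between runs. The run chr7:10200001-11700000, from Zik1 to the Zscan4 genes and among vomeronasal receptors, averaged 0.564%, and chr7:42300001-43800000 from Zfp141 to Zfp819 averaged 1.29%. The run chr7:27600001-28500000 from Zfp607b to Zfp36 averaged 3.30%, chr7:127200001-128100000 from Zfp553 to Zfp646 averaged 3.90%, and the pair Zscan2 and Zfp592 (chr7:80700001-81300000) averaged 5.18%. The lowest and the highest of these runs stayed apart, with ranges over tumours of 0.202% to 0.871% and 3.79% to 6.83%. Runs of nearer level overlapped, such as those from Zfp607b (2.77% to 4.13%) and from Zfp553 (2.59% to 5.57%). The range of the run from Zfp141, 0.831% to 1.75%, also overlapped that of the lowest run. On other autosomes 209 zinc finger bins averaged 3.09%.

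Of the smaller families, Obox homeobox genes (5 bins, 0.559%), secretoglobins (10 bins, 0.855%) and beta globins (1 bin, 0.622%) were lowest. Nlrp genes averaged 1.36% over 14 bins. Kallikreins (1.94%), Siglecs (1.99%), Cyp2 cytochromes (2.08%), Mas-related receptors (2.11%), the tripartite motif cluster (2.25%) and the CEA family (2.34%) lay nearer the chromosome's mean. A bin can hold genes of several families, so their bins overlap.

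**Figure D4:**
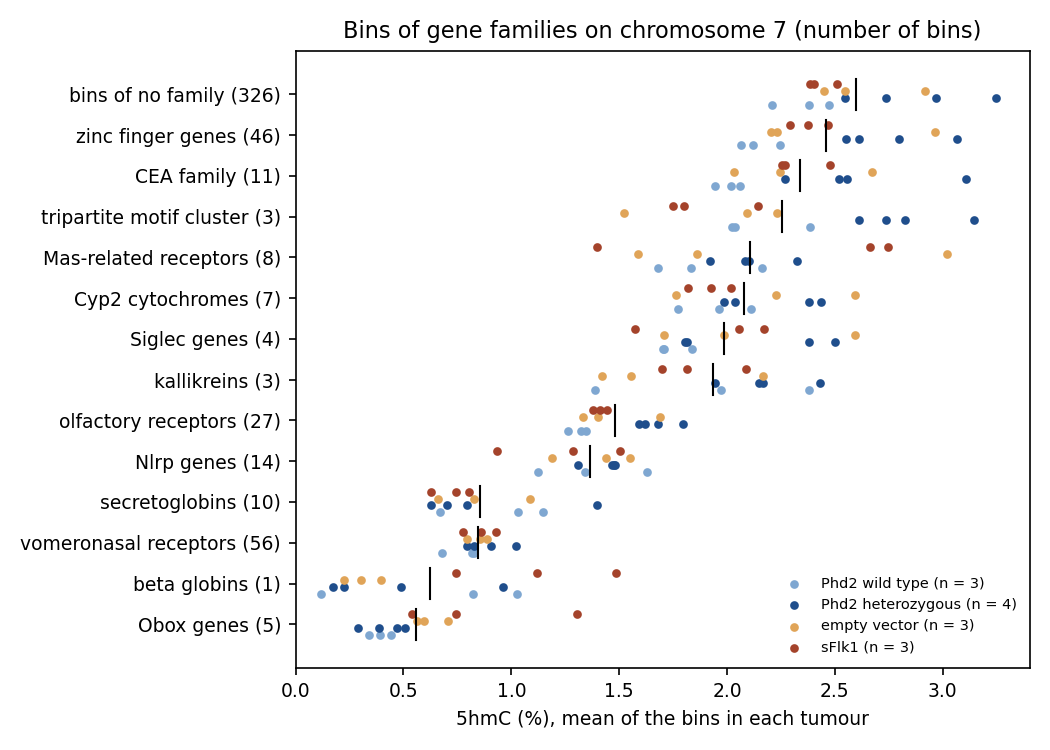
5hmC (%) averaged over the bins of each gene family on chromosome 7, with the number of bins in brackets. Points are the 13 tumours coloured by group and black lines the mean over tumours. Obox genes, beta globins, vomeronasal receptors and secretoglobins lie below 0.9%, and zinc finger genes (2.46%) lie next to the bins of no family (2.60%).

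The first comparison, heterozygous against wild type, bears on 5hmC in tumours with restored oxygen supply. On chromosome 7 the heterozygous mean was 2.52% ± 0.253 (SD, n = 4) and the wild-type mean 2.07% ± 0.100 (SD, n = 3), and the values of the groups did not overlap. The difference of 0.458 percentage points (SE 0.150), or 22.2%, passed limma's test with Benjamini-Hochberg adjustment over 20 chromosomes (adjusted p = 0.00264). So did 95% of the chromosomes, 19 of 20, and the fit gives all of them the same SE, which makes such p-values too small for a shift that all chromosomes share. With the median over bins in place of the mean the difference was 0.303 and did not pass (limma adjusted p = 0.0687).

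Relative to the other autosomes of the same tumour, chromosome 7 differed by -0.10 percentage points (SE 0.0489), which did not pass (limma adjusted p = 0.162, where 5% of the chromosomes passed). Zeros were more frequent in heterozygous tumours (5.89% of chromosome 7 bins against 3.72% in wild type), and in bins above 0 in all tumours the difference was 0.586 points.

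The difference was wider where 5hmC was high. In the highest of the 5 classes of chromosome 7 bins the heterozygous mean was 5.54% ± 0.576 (SD, n = 4) and the wild-type mean 4.30% ± 0.325 (SD, n = 3), with the lowest heterozygous tumour at 5.08% and the highest wild-type tumour at 4.60%. In the lowest class they were 0.418% ± 0.0438 and 0.457% ± 0.0681, and the groups overlapped. From the lowest to the highest class the heterozygous mean differed from the wild-type mean by -8.49%, 9.66%, 18.0%, 23.2% and 28.9% of the latter. The distal section differed by 0.612 points (23.8%) and the proximal section by 0.299 points (19.4%). Family bins differed by 22.1% and the other bins by 22.2%, from very different levels. By family, zinc finger bins were at 2.14% ± 0.0940 (wild type) and 2.76% ± 0.232 (heterozygous), which did not overlap. Zinc finger bins had a higher heterozygous mean in 39 of 46, olfactory bins in 20 of 27 and vomeronasal bins in 32 of 56, where 73.5% of all chromosome 7 bins did.

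By windows of 3 Mb, 10 of 48 on chromosome 7 or 20.8% were higher in heterozygous tumours (limma, Benjamini-Hochberg adjusted over 861 windows), against 26.5% of the windows genome-wide, and none was lower. The heterozygous mean was the higher in 44 windows or 91.7%, against 94.9% genome-wide, and the groups did not overlap in 15 windows or 31.2%, against 39% genome-wide. The share on chromosome 7 was thus no larger than the background.

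The window at the chromosome's end with Cttn, Fgf3, Fgf4, Fgf15 and Ccnd1 differed most. It stood at 3.97%, 3.31% and 3.97% in wild-type and at 6.49%, 6.63%, 4.29% and 4.60% in heterozygous tumours, a difference of 1.75 points (SE 0.475, limma adjusted p = 0.0249). The groups did not overlap, but heterozygous tumours 1 and 2 stood well above the other two. The highest window, with Rps3 and Numa1, differed by 1.47 points (SE 0.412, limma adjusted p = 0.0249).

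The other 8 windows past the threshold began at 66, 75, 78, 108, 111, 114, 126 and 132 Mb, with differences of 0.515 to 1.10 points. They hold, among others, Mef2a, the guanine exchange factor Akap13, Blm and Idh2, the hypoxia-induced peptide gene Adm, Tead1, the Ras-related Rras2, the integrin Itgam and Ctbp2. Of the 10 windows, 9 were in the distal section. With only wild-type and heterozygous tumours in the fit, 1 window was left, the one at the chromosome's end (limma adjusted p = 0.0454). Without wild-type tumour 2, heterozygous tumour 1 or heterozygous tumour 2, 0 windows passed, without wild-type tumour 3 there were 2, and without heterozygous tumour 4 there were 22. None passed once each tumour's own mean had been subtracted.

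**Figure D5:**
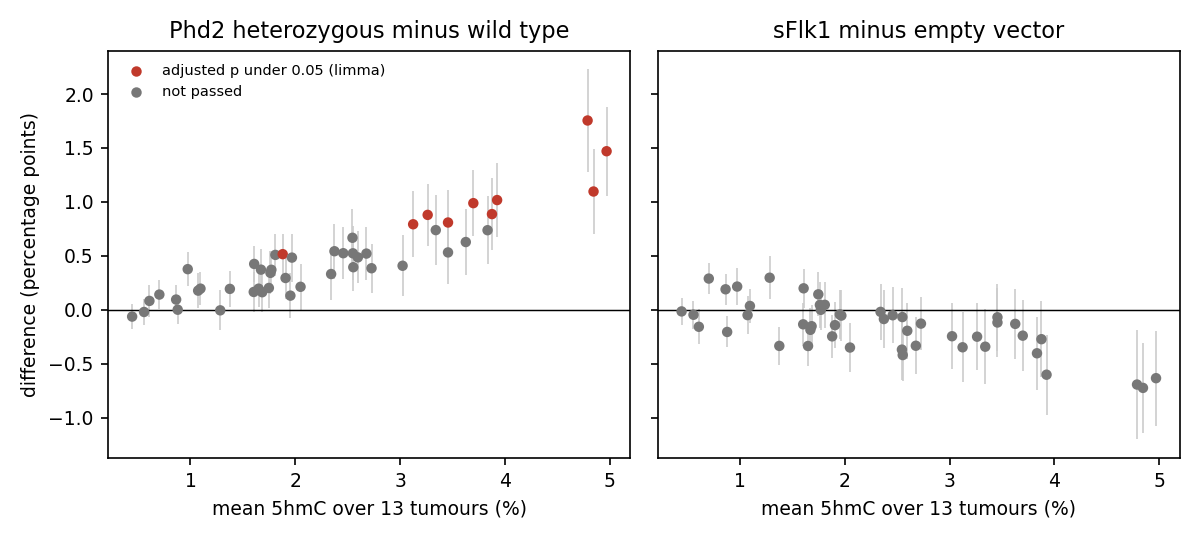
Difference in 5hmC (percentage points) against mean 5hmC (%) over 13 tumours for the 48 windows of 3 Mb, for Phd2 heterozygous minus wild type (left) and sFlk1 minus empty vector (right). Bars are limma standard errors and red points passed an adjusted p of 0.05. The left panel climbs to 1.75 points in the highest windows, and no window passed on the right.

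No single bin of chromosome 7 passed in this comparison (limma adjusted p over 8576 bins, where 0% passed). At an unadjusted p under 0.05, 45 bins (9.47%) were higher, against 10.4% genome-wide, and 3 bins (0.632%) lower, against 0.443%. The heterozygous mean was the higher in 349 bins (73.5%), against 75.1%, and each heterozygous value exceeded each wild-type value in 50 bins (10.5%), against 11%.

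The bin chr7:80700001-81000000, with the scaffold protein gene Iqgap1 and Zscan2, stood at 4.86%, 4.87% and 4.30% in wild-type and at 7.35%, 7.63%, 8.18% and 7.35% in heterozygous tumours, with no overlap (limma adjusted p = 0.324). The bin chr7:110400001-110700000, with Sbf2 and Adm, stood at 4.54%, 4.43% and 3.71% against 4.98%, 8.05%, 6.98% and 6.54%, again with no overlap (limma adjusted p = 0.337). The bin with Pepd and Cebpg (chr7:34800001-35100000) stood at 2.66%, 2.19% and 3.94% against 5.80%, 5.17%, 4.03% and 4.63%. The groups did not overlap there either, though the nearest tumours stood at 3.94% and 4.03%.

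The other 2 bins with the smallest p among those with a higher heterozygous mean held Zfp939 and Zfp619 (chr7:39300001-39600000) and the glutamate receptor Grm5 (chr7:87600001-87900000). Among those with a lower heterozygous mean the 5 with the smallest p held Scgb2b10, no gene (chr7:69600001-69900000), predicted genes (chr7:39000001-39300000), Vmn2r40 and the protease Pcsk6 (chr7:65700001-66000000). The last stood at 3.82%, 5.65% and 5.07% in wild-type and 4.17%, 4.09%, 3.27% and 3.04% in heterozygous tumours, which overlapped (limma adjusted p = 0.494), and the first 4 had means under 1.2% in both groups.

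The second comparison, sFlk1 against empty vector, bears on 5hmC in tumours made more hypoxic. On chromosome 7 the sFlk1 mean was 2.16% ± 0.0548 and the empty-vector mean 2.31% ± 0.247 (SD, n = 3 each), a difference of -0.16 percentage points (SE 0.160), and the groups overlapped. It did not pass (limma adjusted p = 0.366, where 0% of the chromosomes passed). Empty-vector tumour 1 at 2.60% held most of it, since without it the difference was -0.015 points (limma adjusted p = 0.932). Relative to the other autosomes the difference was 0.083 points (SE 0.0522, limma adjusted p = 0.451, where 0% passed).

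No window of chromosome 7 passed (0 of 48, where 0% of all windows passed). At an unadjusted p under 0.05 there was 1, chr7:60000001-63000000 with Snrpn and Ndn, which was at 0.621%, 1.06% and 1.07% in sFlk1 and 0.721%, 0.744% and 0.420% in empty-vector tumours. The sFlk1 mean was the lower in 39 windows (81.2%), against 76.8% genome-wide, and each sFlk1 value was under each empty-vector value in 4 windows (8.33%), against 16.8%. The gap between the distal and proximal sections was 1.04, 0.834 and 1.06 points in sFlk1 tumours and 1.26, 1.09 and 1.07 points in empty-vector tumours. The groups did not overlap, but their nearest tumours were close.

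Among single bins none on chromosome 7 passed, where 0.0117% did genome-wide, which is 1 bin. At an unadjusted p under 0.05, 14 bins (2.95%) were higher, against 2.12%, and 19 (4%) lower, against 5.06%. The sFlk1 mean was the lower in 278 bins (58.5%), against 59.5%, and each sFlk1 value was under each empty-vector value in 26 bins (5.47%), against 8.24%.

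The bin with the protein kinase gene Prkcb (chr7:122400001-122700000) stood at 2.04%, 1.25% and 1.64% in sFlk1 and 4.13%, 4.26% and 3.12% in empty-vector tumours (limma adjusted p = 0.457). The bin with Dock1 and Insyn2a (chr7:134700001-135000000) stood at 2.31%, 3.05% and 3.41% against 5.59%, 6.04% and 5.27%, and that with Lrrk1 and the retinaldehyde dehydrogenase Aldh1a3 (chr7:66300001-66600000) at 2.58%, 3.90% and 2.67% against 5.72%, 5.84% and 5.05% (limma adjusted p = 0.466 for both). In these 3 bins the groups did not overlap. The other 2 of the 5 with the smallest p and a lower sFlk1 mean, at chr7:88500001-88800000 and chr7:75300001-75600000, held no protein-coding gene.

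Among the bins with a higher sFlk1 mean, the smallest p was at chr7:7500001-7800000 with Vmn2r33 and Vmn2r34. It was 2.45%, 0% and 1.68% in sFlk1 and 0% in all 3 empty-vector tumours, 7 of the 13 tumours being at 0 (limma adjusted p = 0.457). Without sFlk1 tumour 2, the only sFlk1 tumour at 0 there, it passed (limma adjusted p = 0.00131), so the pass depends on leaving out the contrary value. The next 4 were in part clusters too, with Vmn1r82 and Zfp551, with keratin-associated Krtap5 genes, with Vmn2r57 and Zfp788, and 1 without a gene.

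Genes of known function were then read through the bin that holds most of their body, which measures 300 kb around a gene and not the gene itself. The lists name 93 genes in 71 bins, and genes that share a bin share its value, such as Fgf3, Fgf4 and Fgf15, or Axl and Tgfb1. Over these bins the median level was 3.49%, against 2.02% over all chromosome 7 bins and 2.36% over all bins of the genome. The heterozygous mean was the higher for 80 of 93 genes, against 73.5% of all chromosome 7 bins and 75.1% genome-wide. The sFlk1 mean was the lower for 56 of 93, against 58.5% and 59.5%, and 0 passed in either comparison. These shares are also the background for the counts of each list below, in which genes that share a bin were each counted. Over all chromosome 7 bins the median difference was 0.293 points for heterozygous minus wild type and -0.13 points for sFlk1 minus empty vector, and over the genome 0.385 and -0.15 points.

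Of 6 genes of oxygen sensing and hypoxia, 5 had a higher heterozygous mean, and the median level was 3.91%. Egln2, which encodes Phd1, a close relative of Phd2, was at 3.59% in wild-type and 4.35% in heterozygous tumours. Ldha, the lactate dehydrogenase, was at 3.41% and 5.03%, Gpi1, a glycolytic isomerase, at 4.03% and 5.47%, and Adm had the widest difference, 2.41 points. Only for Adm did each heterozygous value exceed each wild-type value, so the groups overlapped for Egln2, Ldha and Gpi1. Bnip3, a mitophagy gene induced by hypoxia, was the exception at 1.37% and 1.24%. The sFlk1 mean was the lower for 3 of 6.

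All 17 growth signalling genes, in 14 bins, had a higher heterozygous mean, where 73.5% of all chromosome 7 bins did. Their median level was 3.86%, against 2.02% over all chromosome 7 bins. Ccnd1, cyclin D1, was at 3.15% in wild-type and 5.39% in heterozygous tumours, Rras2 at 4.80% and 6.84%, and the bin of Axl and Tgfb1 at 2.79% and 4.76%. The groups did not overlap for 7 of the 17, which share 4 of the 14 bins, where 10.5% of all chromosome 7 bins did not overlap in this direction. The smallest difference was at Igf1r, 3.26% against 3.36%. The sFlk1 mean was the lower for 10 of 17.

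Transcription factors (8 of 9 with a higher heterozygous mean, 8 of 9 with a lower sFlk1 mean) ranged from Myod1, the muscle factor, at 1.18% over all tumours to Tead1 at 6.10%. Genes of chromatin and DNA repair had a higher heterozygous mean for 8 of 9, the exception being Eed, a Polycomb subunit, at 3.56% in wild-type and 3.38% in heterozygous tumours. Idh2, a mitochondrial isocitrate dehydrogenase that makes the cofactor of TET enzymes, shares its bin with Fes and stood at 4.83% and 5.80%. Chd2, a chromatin remodeller, was at 5.24% in sFlk1 and 6.62% in empty-vector tumours, which did not overlap.

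All 12 leukocyte genes had a higher heterozygous mean, with a median level of 3.28%, as had 4 of 5 epithelial genes with a median of 4.29%. Of all chromosome 7 bins 73.5% had one, and the difference was wider where 5hmC was high. Coro1a, a leukocyte actin regulator, was at 3.69% in wild-type and 5.19% in heterozygous tumours, which did not overlap. These are DNA measures and give no cell numbers, and the part of cell makeup in any difference was not tested. Ribosomal protein genes had a higher heterozygous mean for 9 of 10, with a median level of 3.12%. The bin of Rps3 was at 4.22% in sFlk1 and 6.66% in empty-vector tumours, without overlap.

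The 22 imprinted genes spanned the range of the chromosome. Mkrn3 and Peg12 (0.541%), Ndn and Magel2 (0.577%) and Snrpn (0.746%) of the domain lost in Prader-Willi syndrome were low, while the neighbouring Ube3a stood at 2.83%. In the distal cluster H19, Igf2 and Ins2 share a bin at 1.28%, and Kcnq1 and its antisense RNA Kcnq1ot1 share 1 at 4.35%, Cdkn1c and Phlda2 1 at 4.02%, and Osbpl5 lies in 1 at 4.43%. The heterozygous mean was the higher for 17 of 22 and the sFlk1 mean the lower for 9 of 22. The 3 GABA-A receptor genes, which encode neuronal chloride channel subunits, were at 0.438% to 0.643%, and none of the 3 had a higher heterozygous mean.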

How the data were processed

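5hmC was measured by TAB-seq in 13 tumours. The deposited table holds percent values, one per 300 kb bin and tumour. The submitters' processing notes list Bismark 0.13.1 and the build mm9, without saying what each was used for. Since the last chromosome 7 bin ends at 145441459, the GRCm38 length, positions are read as GRCm38. Not given in the sources used here are the pooling of calls into bins, a coverage minimum and the conversion rates. Read counts are not part of the table, so depth is unknown, no counting interval can be given, and thinly covered bins count as fully as others. DNA was extracted with an iron chelator in the buffers, per the labels' protocols.

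Groups came from the sample titles. Autosome and X bins at 0 in all tumours were left out. Bins, windows of 10 bins (at least 5 kept) and the means of 20 chromosomes were each fitted genome-wide with limma 3.58.1 in R 4.3.3 on the percentages, with 4 group means over 13 tumours, a trend for bins and windows, and Benjamini-Hochberg adjustment at 0.05. limma assumes a shared spread, which is not met where a bin has many zeros. The fit of single bins was tested on simulated data, with every bin drawn independently. Such data cannot check the windows, the chromosomes or a shift that all bins of a tumour share. P-values measure the spread between single tumours. Genes were assigned to the bin holding most of their body by RefSeq (GRCm38.p6), and all 93 listed genes matched. Named were the 10 highest and 10 lowest bins, the 5 highest and 5 lowest windows, bins and windows past the threshold or the 5 with the smallest p per direction, and the listed families and genes. Members and lists were chosen with earlier results of these data known.

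Alternatives were medians, bins above 0 in all tumours, bins without family genes, log2(percent + 0.5), a log2 ratio to the other autosomes, 2 groups per fit, the replicate number as a block, a grid shifted by 1.5 Mb, 6 Mb windows, subtraction of the tumour's mean, and each tumour left out.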

Additional observations from a re-analysis of the deposited data

Results flagged for a closer look

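In 3 of the 44 sets of Phd2 heterozygous values examined, 1 of the 4 tumours stood far from the others, where chance alone picks out about 1 in 20 groups. Over the Nlrp gene bins of chromosome 7, heterozygous tumour 4 stood at 1.31% below 1.47%, 1.48% and 1.48%. In the lowest window, chr7:9000001-12000000, heterozygous tumour 3 stood at 0.724% above 0.326%, 0.323% and 0.297%. In the bin chr7:116100001-116400000 with Plekha7, Rps13 and Pik3c2a, heterozygous tumour 2 stood at 7.37% above 5.85%, 5.84% and 5.59%. In each case a different tumour stood apart.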

How the results depend on the processing

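The chromosome 7 mean stayed higher in Phd2 heterozygous tumours under all alternatives run, from 0.303 to 0.586 percentage points, and passed in all but the median over bins (0.303). All used the same kind of fit, so passing carries the limit named above for a shift that all chromosomes share. Leaving out 1 tumour gave 0.352 to 0.547 points. The sFlk1 difference stayed negative, from -0.24 to -0.015 points with 1 tumour left out, and never passed, nor did chromosome 7 relative to the other autosomes in either comparison. The 10 Phd2 windows became 1 with only the 2 groups in the fit, 19 with the replicate block and 0 after subtracting each tumour's mean. Leaving out 1 tumour gave 0 to 22 windows: 0 without wild-type tumour 2 or heterozygous tumour 1 or 2, 2 without wild-type tumour 3, and 22 without heterozygous tumour 4. Other settings gave 8 of 35 windows (bins without family genes, chosen after seeing the data) to 15 of 43 (bins above 0 in all tumours). The grid of 6 Mb gave 13 of 24, against 10 of 48 in the main run, so these counts have unlike totals. Single bins stayed at 0, except 1 sFlk1 bin (range 0 to 1) without sFlk1 tumour 2. Same-numbered tumours did not deviate together (correlations -0.09 to -0.0043), so the numbers do not pair them; with the replicate block, which drops heterozygous tumour 4, the chromosome 7 differences were 0.547 and -0.16 points. The cause of the changes was not tested.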
